A study of Mus musculus with 12 samples.

Results

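The 10 circadian clock genes Arntl, Clock, Npas2, Per2, Per3, Cry1, Cry2, Dbp, Nr1d1 and Nr1d2 were followed through 12 RNA sequencing libraries of sensory neurons that innervate the mouse tongue. They were chosen by symbol, all 10 had a row among the 22609 gene symbols of the count tables, and all 10 passed the filter on low counts in every comparison. Trigeminal ganglion (TG) neurons were labeled from the tongue with wheat germ agglutinin (WGA-488), a lectin that is taken up by nerve endings and carried to the cell body, and were then flow sorted. All animals were Balb/c athymic nude mice, and there were 3 libraries in each of 4 groups: males without a tumor (MN, normal) and with one (MT), and females without (FN) and with one (FT).

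MT and FT mice had 350000 HSC3 cells, a human oral squamous cell carcinoma line, injected into the tongue. By the labels the MN and FN mice received no cells, whereas the methods of the study state that they received human oral keratinocytes. WGA was given on day 13 (at 0.5% by the labels, and at a higher concentration by the methods of the study) and ganglia were taken on day 15. Each library pooled 4 ganglia, from 2 mice in the normal groups and from 4 mice in the tumor groups, where the ganglia came from the injected side. The time of day at which ganglia were collected is not given in the sources used here. Athymic mice lack mature T cells, and the gate selected WGA-488 bright cells, not a neuronal marker.

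The circadian clock is a feedback loop of transcription and protein decay that runs in nearly every cell of the body, peripheral neurons included. ARNTL (also called BMAL1) pairs with CLOCK or its relative NPAS2 and switches on the Per and Cry genes, whose proteins then shut the pair down. The same pair drives Nr1d1, Nr1d2 and Dbp, and the NR1D proteins repress Arntl, so that in most tissues Arntl and Npas2 peak at the opposite time of day to Dbp, Nr1d1, Nr1d2, Per2 and Per3, while Cry1 peaks later than the other targets.

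Letter matches to elements through which this loop acts were found in the promoters of some members and not of others. The stretches below lie before the start of Dbp, Per3 and Nr1d1, 3 of the members called between FN and MN in a fit given further on. Others lie before the start of the late gene Cry1 and around the NR1D and ROR site of Arntl. All stretches are RefSeq sequences of mouse build GRCm38.p6, 5′ to 3′ on the strand of the gene, and capitals mark a motif match. Of the 10 members, 9 had promoters in the RefSeq table, 12 promoters in all, and Per2 had none. Per2 and Nr1d2 were also called in the fit named above and are not shown.
Dbp, chr7:45704997-45705246, plus strand: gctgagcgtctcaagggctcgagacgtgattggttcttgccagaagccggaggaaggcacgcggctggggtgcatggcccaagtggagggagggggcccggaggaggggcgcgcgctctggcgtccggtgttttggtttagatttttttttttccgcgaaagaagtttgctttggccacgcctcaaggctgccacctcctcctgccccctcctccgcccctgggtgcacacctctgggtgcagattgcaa
Per3, chr4:151044666-151044915, minus strand: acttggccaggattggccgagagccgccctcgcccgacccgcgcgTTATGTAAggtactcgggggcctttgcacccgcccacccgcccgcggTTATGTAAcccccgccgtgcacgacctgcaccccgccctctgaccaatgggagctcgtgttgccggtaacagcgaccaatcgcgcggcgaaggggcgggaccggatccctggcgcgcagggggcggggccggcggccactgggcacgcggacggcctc
Nr1d1, chr11:98775378-98775627, minus strand: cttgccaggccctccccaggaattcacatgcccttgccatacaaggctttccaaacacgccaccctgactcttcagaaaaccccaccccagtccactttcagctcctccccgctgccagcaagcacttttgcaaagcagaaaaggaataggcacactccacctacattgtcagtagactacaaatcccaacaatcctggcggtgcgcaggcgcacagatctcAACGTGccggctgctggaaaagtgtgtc
Cry1, chr10:85185055-85185304, minus strand: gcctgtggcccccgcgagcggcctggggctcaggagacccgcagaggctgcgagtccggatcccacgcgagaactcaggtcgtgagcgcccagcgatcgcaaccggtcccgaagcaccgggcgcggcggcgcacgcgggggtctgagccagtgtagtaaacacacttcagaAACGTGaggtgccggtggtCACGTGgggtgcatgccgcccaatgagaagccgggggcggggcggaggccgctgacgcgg
Arntl, chr7:113207528-113207557, plus strand: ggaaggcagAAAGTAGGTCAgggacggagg

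The Per3 stretch held the D-box TTATGTAA, the element bound by DBP and its relatives, at 205 and at 158 bases before the start, and 0.938% of the 32851 mouse promoters in the table held this element. In Cry1 the E-box CACGTG, the element bound by ARNTL with CLOCK, lay 60 bases before the start (7.15% of promoters held it). The related E′-box CACGTT was read on the opposite strand, as AACGTG, 79 bases before the start of Cry1 and 28 bases before the start of Nr1d1 (4.68% of promoters). The Arntl stretch held the ROR element, bound by the NR1D and ROR proteins, starting 27 bases after the start (0.384% of promoters). The Dbp stretch held none of the motifs searched, which says only that those letters are not in that window. The promoters of Clock, Npas2 and Nr1d2, which are not shown, held none either. Of the 12 member promoters, 1 held the E-box, 3 the E′-box (those of Cry1, Nr1d1 and Cry2), 1 the D-box and 1 the ROR element. Windows ran from 250 bases before to 50 bases after each start, both strands were searched, and a match is a match of letters only.

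Between 4592891 and 8922011 reads per library were counted on genes. FN replicate 2, FT replicate 2 and FT replicate 3 stood apart from the other 9 libraries: 52.6% to 68.4% of their reads mapped to several places, against 43.0% to 45.5% in the other 9. Their highest rank correlation (Spearman) with any of those 9 over 13710 genes was 0.805 to 0.906, whereas the lowest among the 9 was 0.970. The 13 sensory neuron markers were present in all 12 libraries, with a summed level of 15059 to 26968 CPM (read counts scaled to the total of reads on genes in each library). Values from these 3 libraries are given beside the others.

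In MN the levels of the members differed widely. Per length of transcript, as RPKM (CPM per kilobase of exon), the level of Cry2 was the highest of the members at 38.0 ± 1.50 (SD, n = 3), followed by Nr1d1 at 13.0 ± 0.92, Cry1 at 7.52 ± 1.17 and Nr1d2 at 3.90 ± 0.90. Dbp (2.51 ± 0.09), Arntl (2.50 ± 0.64) and Clock (2.39 ± 0.22) came next with ranges that overlapped, and Per2 (0.69 ± 0.13), Npas2 (0.57 ± 0.19) and Per3 (0.55 ± 0.14) were the lowest, also with overlapping ranges. The low members rest on few reads, from 2 to 74 counts per library for Arntl, 7 to 99 for Per2 and 0 to 32 for Npas2, compared with 232 to 2349 for Cry2.

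**Figure D1:**
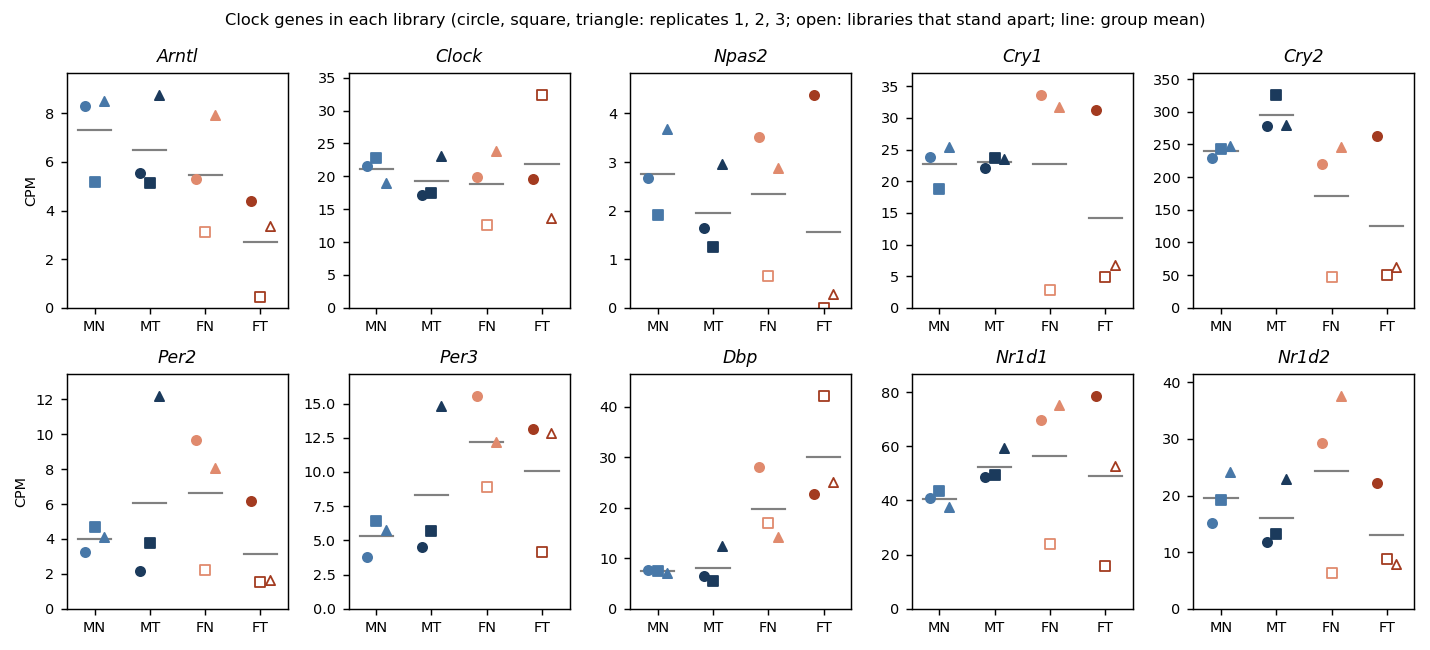
Level of each clock gene in CPM (linear axis from 0) in every library of MN, MT, FN and FT. Points are libraries (circle, square and triangle for replicates 1, 2 and 3), open points are FN replicate 2, FT replicate 2 and FT replicate 3, and lines are group means; Dbp lay between 7.11 and 7.59 CPM in MN and between 14.2 and 42.2 CPM in all 6 female libraries.

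The members also differed in how much they varied. Over the 9 libraries other than the 3 that stood apart, the SD of log2 CPM was 0.82 for Dbp, 0.77 for Per2 and 0.76 for Per3, which placed them at the 97.3, 96.3 and 96.3 percentile of 13659 genes. It was 0.17 for Clock and 0.17 for Cry2, at the 31.0 and 31.5 percentile, and 0.38 for Arntl, at the 74.5 percentile. Dbp, Per2 and Per3 were thus the most variable members, while Cry2 and Clock were the steadiest. The 9 libraries span both sexes and both tumor states, so the SD includes differences between groups. It was not adjusted for level, and low counts add counting error.

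The values of the activators overlapped between MN, MT and FN. Arntl (chr7:120350979-120457636, plus strand, mm9), which encodes the partner that CLOCK and NPAS2 share, was at 8.30, 5.16 and 8.49 CPM in MN, at 5.53, 5.14 and 8.77 CPM in MT, at 5.28, 3.13 and 7.94 CPM in FN and at 4.39, 0.435 and 3.35 CPM in FT. The 3 FT values lay below all MN and MT values, with the lowest in FT replicates 2 and 3, which stood apart. The share of all genes below both male groups in this way was not computed. Clock (chr5:76639992-76733817, minus strand) was at 21.5, 22.9 and 19.0 CPM in MN, 17.2, 17.5 and 23.1 CPM in MT, 19.9, 12.7 and 23.8 CPM in FN and 19.6, 32.4 and 13.7 CPM in FT, so that all 4 groups overlapped. Npas2 (chr1:39250576-39420079, plus strand) was at 2.67, 1.91 and 3.67 CPM in MN, 1.64, 1.25 and 2.96 CPM in MT, 3.52, 0.652 and 2.88 CPM in FN and 4.39, 0 and 0.279 CPM in FT. The groups overlapped here too. The 0 in FT replicate 2 is a count of 0 of 4592891 reads, which allows up to 3 counts, and covers counting error only.

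Among the repressors, Per2 and Per3 were both high in MT replicate 3, FN replicates 1 and 3 and FT replicate 1. Per2 (chr1:93312561-93355907, minus strand), a scaffold of the repressor complex, was at 3.23, 4.71 and 4.13 CPM in MN and at 2.14, 3.75 and 12.2 CPM in MT, so that MT replicate 3 lay far above the other male libraries. In the female libraries Per2 was at 9.68, 2.22 and 8.08 CPM in FN and at 6.17, 1.52 and 1.67 CPM in FT. The 3 low female values were those of the libraries that stood apart. Per3 (chr4:150377761-150418774, minus strand), a relative of Per2 that is driven by E-box and D-box elements, was at 3.80, 6.39 and 5.74 CPM in MN, 4.53, 5.70 and 14.8 CPM in MT, 15.6, 8.87 and 12.2 CPM in FN and 13.2, 4.14 and 12.8 CPM in FT. All 3 FN values of Per3 lay above all MN values, and MT replicate 3 was again the high male library.

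Cry1 (chr10:84594447-84647799, minus strand), the stronger repressor of the cryptochrome pair, was at 23.8, 18.7 and 25.5 CPM in MN and at 22.1, 23.6 and 23.6 CPM in MT. It was at 33.7, 2.87 and 31.8 CPM in FN and at 31.3, 4.79 and 6.69 CPM in FT. In the 3 female libraries that did not stand apart Cry1 lay above every male library, and in the 3 that did it lay below every one. The share of all genes with these separations was not computed. Cry2 (chr2:92243803-92274200, minus strand) was at 229, 243 and 247 CPM in MN, 278, 326 and 280 CPM in MT, 221, 47.0 and 246 CPM in FN and 263, 50.5 and 62.0 CPM in FT. All MT values of Cry2 exceeded all MN values, and the 3 lowest values were again those of the libraries that stood apart.

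The nuclear receptor genes Nr1d1 and Nr1d2 (REV-ERB alpha and beta) encode the repressors of Arntl. Nr1d1 (chr11:98629246-98636647, minus strand) was at 41.1, 43.4 and 37.6 CPM in MN, 48.7, 49.5 and 59.4 CPM in MT, 69.5, 24.0 and 75.2 CPM in FN and 78.7, 15.7 and 52.6 CPM in FT. All MT values lay above all MN values, and FN replicates 1 and 3 and FT replicate 1 lay above every male library. The share of all genes with the latter separation was not computed. Nr1d2 (chr14:19036568-19071641, minus strand) was at 15.2, 19.3 and 24.2 CPM in MN, 11.8, 13.2 and 22.8 CPM in MT, 29.3, 6.26 and 37.7 CPM in FN and 22.2, 8.71 and 7.95 CPM in FT. The MN and MT values of Nr1d2 overlapped.

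Dbp (chr7:52960458-52965525, plus strand), a PAR bZIP transcription factor and one of the most strongly rhythmic outputs of the clock, was higher in the female libraries. It was at 7.59, 7.51 and 7.11 CPM in MN, 6.41, 5.42 and 12.3 CPM in MT, 28.2, 16.96 and 14.2 CPM in FN and 22.6, 42.2 and 25.1 CPM in FT. Every female library lay above every male library, with MT replicate 3 the nearest male value. Within FN versus MN 9.71% of genes, and within FT versus MT 8.02%, were likewise higher in all female libraries. The share over all 12 libraries was not computed. The highest value was that of FT replicate 2, one of the libraries that stood apart.

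The effect of the tumor in males was compared as MT versus MN, in an edgeR quasi-likelihood fit of these 6 libraries with adjustment over all genes tested. No member passed an adjusted p of 0.05, where 0.045% of 13322 genes did, and 2 members, both higher in MT, had an unadjusted p under 0.05, where 3.7% of genes were higher at that limit. They were Nr1d1, with a log2 fold change of 0.38 (SE 0.12, unadjusted p = 0.0083, edgeR adjusted p = 0.523), and Cry2, with 0.31 (SE 0.10, unadjusted p = 0.0094, edgeR adjusted p = 0.544). These were also the 2 of 10 members whose MT values all exceeded the MN values, a separation that 5.91% of genes showed in this direction. DESeq2 and limma-voom likewise called no member after adjustment. The median log2 fold change was 0.09 over the members and 0.00 over all genes, and that over the members turned to -0.26 without MT replicate 3 and to -0.09 with limma-voom.

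The other members gave no call in males. The log2 fold change was 0.58 (SE 0.52) for Per2, 0.65 (SE 0.41) for Per3, 0.13 (SE 0.30) for Dbp and -0.29 (SE 0.25) for Nr1d2. Those of Per2, Per3 and Dbp rested on MT replicate 3 and turned to -0.43, -0.03 and -0.28 without it. In that library all 5 of Per2, Per3, Dbp, Nr1d1 and Nr1d2 lay above the MN mean, by 0.25 to 1.56 on the log2 CPM scale, compared with 1 of 5 in MT replicate 1 and 2 of 5 in MT replicate 2. The summed level of 10 macrophage markers was 145 CPM in MT replicate 3, 8.68 and 13.1 CPM in MT replicates 1 and 2 and 15.3 to 25.6 CPM in MN. Its part in the clock gene values was not tested, and in such bulk libraries fewer cells of a type and less RNA per cell cannot be told apart.

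In females the tumor comparison, FT versus FN, called no gene of 13408 by edgeR (0.0%) and no member. No member had an unadjusted p under 0.05, where 159 genes (1.19%) did. DESeq2 called no gene and limma-voom 1 gene, which was no member. The log2 fold change was -0.97 (SE 0.76) for Per2, -0.89 (SE 0.78) for Arntl, -0.77 (SE 0.65) for Nr1d2 and 0.75 (SE 0.57) for Dbp, all at an edgeR adjusted p of 1.00. With FN replicate 2 and FT replicate 2 left out of these groups, which was chosen after seeing the data, Per2 was at -1.09 (SE 0.56), Nr1d2 at -1.06 (SE 0.48) and Dbp at 0.31 (SE 0.45), each with an edgeR adjusted p of 0.743 or more. FT replicate 3, which also stood apart, remained in that fit. In the fit of the 9 libraries, where FT replicate 1 was the only FT library and was assumed to vary like the other groups, Per2 was at -0.52 (SE 0.71), Arntl at -0.58 (SE 0.47), Nr1d2 at -0.58 (SE 0.36) and Dbp at 0.10 (SE 0.43), each at an edgeR adjusted p of 0.997. The median over the members was -0.43 with all 6 libraries and -0.07 in that fit.

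The sexes were compared in normal animals as FN versus MN, over genes outside the X and Y chromosomes. Across all 6 libraries no member and no gene of 12893 passed an adjusted p of 0.05 by edgeR (0.0%), while 742 genes (5.76%) had an unadjusted p under 0.05. Dbp and Per3 were the members among them, with log2 fold changes of 1.51 (SE 0.32, unadjusted p = 0.0019, edgeR adjusted p = 0.633) and 1.27 (SE 0.31, unadjusted p = 0.0043, edgeR adjusted p = 0.633). Both were higher in all 3 FN libraries than in all 3 MN libraries, a separation that 9.71% of genes showed in this direction. DESeq2 called 68 genes (0.527%) including Dbp, with an adjusted p of 0.0172, and limma-voom with sample quality weights, which gives an aberrant library less weight, called 962 genes (7.46%) including Per2, Per3, Dbp, Nr1d1 and Nr1d2.

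The count of members called depended on FN replicate 2. With that library left out, edgeR called 5 of 10 members, all higher in FN, where 3.99% of 13178 genes were called higher. Dbp had a log2 fold change of 1.47 (SE 0.27, adjusted p = 0.00678), Per3 of 1.32 (SE 0.27, adjusted p = 0.0124) and Per2 of 1.08 (SE 0.29, adjusted p = 0.0439). Nr1d1 rose by 0.78 (SE 0.12, adjusted p = 0.00289) and Nr1d2 by 0.72 (SE 0.19, adjusted p = 0.0445) on the same scale. Hence the members called were the Per, Dbp and Nr1d genes. Whether clock phase differed between these libraries was not tested, and the time of collection is not given. In the same fit Cry1 was at 0.48 (SE 0.16, adjusted p = 0.100), Npas2 at 0.17 (SE 0.41), Clock at -0.01 (SE 0.17), Cry2 at -0.09 (SE 0.10) and Arntl at -0.19 (SE 0.31), and none of these 5 passed. In 6 of 10 members FN replicates 1 and 3 lay above all MN libraries, where 23.2% of genes did.

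That call was lost in whole or in part in fits of more libraries that also left out FN replicate 2. In the fit of 10 libraries with 4 group means, without FN replicate 2 and FT replicate 2, edgeR called no gene of 13462 and no member. There 821 genes and 3 members (Dbp, Per3 and Nr1d1) had an unadjusted p under 0.05, and Dbp was at 1.46 (SE 0.35, edgeR adjusted p = 0.508). In the fit of the 9 libraries that did not stand apart only Nr1d1 of the members passed, with an adjusted p of 0.0319, among 54 genes (0.391%). For FN replicates 1 and 3 and MN alone, a choice made after seeing the data, limma-voom called the same 5 members, where it called 5.9% of genes, and DESeq2 4 of them, without Per2 (adjusted p = 0.0658), where it called 5.63%. Leaving out FN replicate 1 or 3 instead of 2, or any one MN library, gave no called member. The median log2 fold change without FN replicate 2 was 0.60 over the members and 0.00 over all genes, and with it 0.15 and 0.06.

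**Figure D2:**
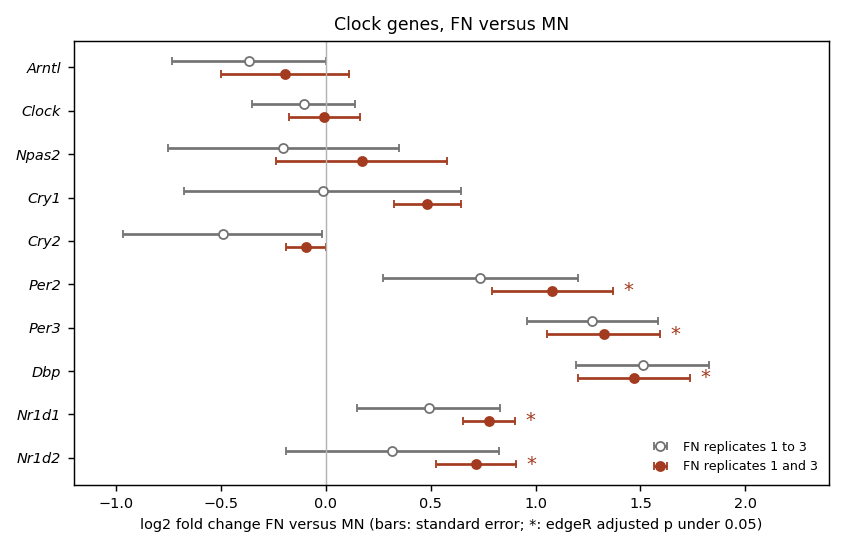
log2 fold change of each clock gene in FN versus MN from edgeR, with all 3 FN libraries (open) and with FN replicates 1 and 3 (filled). Bars are standard errors and asterisks mark an adjusted p under 0.05, which Dbp, Per3, Per2, Nr1d1 and Nr1d2 reached without FN replicate 2 and no member reached with it.

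Some lists of non-neuronal markers also differed between FN and MN, and others overlapped. The 10 macrophage markers, all of them in the files and at most 1 at 0 in any library, summed to 246, 113 and 108 CPM in FN against 15.3 to 25.6 CPM in MN, and the groups did not overlap. The 7 fibroblast markers, at 167 to 412 CPM in FN against 82.4 to 143 CPM in MN, did not overlap either. The 7 satellite glia markers summed to 1658, 802 and 1613 CPM in FN against 859 to 940 CPM in MN. These overlapped, because FN replicate 2 lay below MN. The 6 myelinating Schwann cell markers, at 1948 to 2248 CPM in FN and 1933 to 1990 CPM in MN, overlapped. The 8 endothelial markers summed to 740 to 1179 CPM in FN and 366 to 883 CPM in MN, which overlapped. The 7 immediate early genes, which respond to stimulation and to tissue dissociation, summed to 1564 to 1838 CPM in FN and 1045 to 1338 CPM in MN, whereas the 6 glucocorticoid targets, at 487 to 714 CPM and 551 to 714 CPM, overlapped. Their part in the clock gene differences was not tested.

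Some members overlap a gene on the opposite strand, and the strand setting of the counting is not given, so reads in the overlap cannot be told apart. Dbp shared 491 exon bases with Sphk2, Nr1d1 263 with Thra and Cry2 295 with D930015M05Rik. In FN versus MN without FN replicate 2, Sphk2 was at a log2 fold change of -0.28 (SE 0.12, edgeR adjusted p = 0.194), opposite in sign to Dbp. Thra was at 0.31 (SE 0.15, edgeR adjusted p = 0.267), of the same sign as Nr1d1. D930015M05Rik was at -0.37 (SE 0.25, edgeR adjusted p = 0.438), of the same sign as Cry2. The part of reads from the opposite strand in the member values was not tested.

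Between the tumor groups, FT versus MT, edgeR again called no gene of 12846 (0.0%), with 1231 genes (9.58%) at an unadjusted p under 0.05. Dbp was the 1 member among them, at a log2 fold change of 2.13 (SE 0.53, unadjusted p = 0.0024, edgeR adjusted p = 0.511). DESeq2 called 184 genes (1.43%), of the members Dbp alone, with an adjusted p of 0.0150, and limma-voom called 3 genes and no member. All 3 FT values of Dbp exceeded the MT values, which 8.02% of genes did, and those of Arntl and Cry2 lay below them, which 9.79% did. Cry2 was at -1.18 (SE 0.55, edgeR adjusted p = 0.513). The low Cry2 values were in FT replicates 2 and 3. With FT replicate 1 as the only FT library, chosen after seeing the data and with the spread taken from MT, Dbp was at 1.44 (SE 0.42, edgeR adjusted p = 0.973).

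The difference between the sexes in the tumor effect, the contrast of FT versus FN with MT versus MN over all 12 libraries, called no gene of 13835 by edgeR (0.0%), with 203 genes (1.47%) and no member at an unadjusted p under 0.05. It was -1.57 (SE 0.94) for Per2 and 0.62 (SE 0.62) for Dbp on the log2 scale, both at an edgeR adjusted p of 1.00. The comparisons share libraries (FN in FN versus MN and in FT versus FN, MN in FN versus MN and in MT versus MN), so their differences are not independent of one another.

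The Per, Dbp and Nr1d genes were next set against Arntl, Npas2, Clock and Cry1 within each library, which does not depend on how libraries are scaled. The mean log2 CPM of Per2, Per3, Dbp, Nr1d1 and Nr1d2 minus that of Arntl, Clock, Npas2 and Cry1 was -0.20, 0.46 and -0.02 in MN and 0.08, 0.35 and 0.83 in MT. It was 1.18, 1.44 and 0.84 in FN and 0.92, 1.87 and 1.72 in FT. The means were 0.08 ± 0.34 (SD, n = 3) in MN, 0.42 ± 0.38 in MT, 1.15 ± 0.30 in FN and 1.50 ± 0.51 in FT. All 6 female values exceeded all 6 male values, the nearest being MT replicate 3 at 0.83 and FN replicate 3 at 0.84.

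The same order came from different sides of the balance. In FN replicates 1 and 3 and FT replicate 1 the Per, Dbp and Nr1d mean was high, at 4.63, 4.41 and 4.35 log2 CPM against 3.22 to 3.55 in MN, and the Arntl, Clock, Npas2 and Cry1 mean, at 3.45, 3.57 and 3.43, lay near the MN values of 3.08 to 3.52. In FN replicate 2, FT replicate 2 and FT replicate 3 the former was at 3.18, 3.11 and 3.62 and the latter was low, at 1.75, 1.24 and 1.89. These low means rest in part on values near the floor. Npas2 had 5, 0 and 2 counts in these libraries, and Arntl had 2 counts in FT replicate 2. MT replicate 3 had a Per, Dbp and Nr1d mean of 4.33 and an Arntl arm mean of 3.50, close to the values of the first 3 female libraries. Dbp minus Arntl alone was -0.12, 0.52 and -0.25 in MN, 0.20, 0.07 and 0.48 in MT, 2.36, 2.34 and 0.82 in FN and 2.30, 5.92 and 2.81 in FT. No test was made on these means, since the genes were chosen with results of these libraries known.

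**Figure D3:**
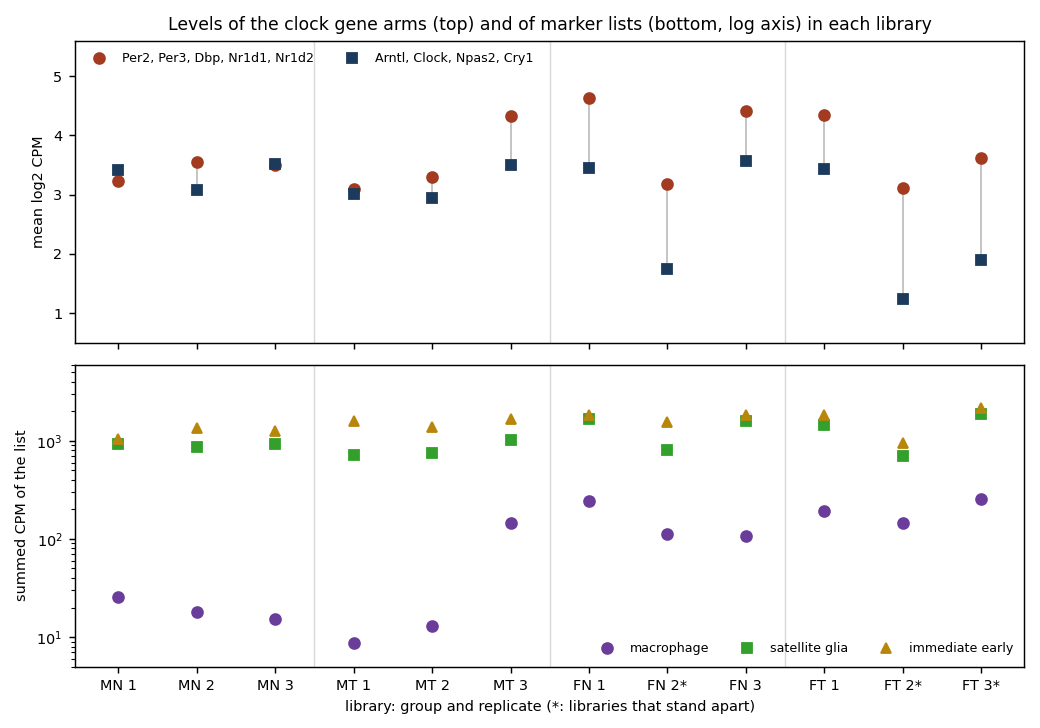
Upper panel, mean log2 CPM of Per2, Per3, Dbp, Nr1d1 and Nr1d2 (circles) and of Arntl, Clock, Npas2 and Cry1 (squares) in each library. Lower panel, summed CPM of the macrophage, satellite glia and immediate early lists on a log axis; asterisks mark the 3 libraries that stood apart, and the 4 libraries with the highest circles (FN replicates 1 and 3, FT replicate 1 and MT replicate 3, at 4.33 to 4.63) had 108 to 246 CPM of macrophage markers, the other 5 male libraries 8.68 to 25.6 CPM, and the 3 libraries that stood apart 113 to 258 CPM with circles at 3.11 to 3.62.

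The relation of Arntl to the other members was then measured from library to library. Over the 9 libraries that did not stand apart, Pearson's r of the log2 CPM of Arntl with each of the other 9 members ran from -0.30 with Nr1d1 to 0.46 with Clock, and Spearman's rho from -0.42 with Nr1d1 to 0.35 with Clock. By exact two-sided permutation tests adjusted over the 9 relations, no Pearson p was under 0.818 and no Spearman p under 0.948, and the raw p was 0.410 and 0.270 for Nr1d1. With Dbp r was -0.21 (exact permutation p = 0.563) and rho -0.03 (exact permutation p = 0.948). Without MT replicate 3 and MN replicate 3, the libraries farthest from the median of Arntl, r with Nr1d1 was -0.21 and with Dbp -0.20. Within groups, as deviations from the group means over 8 libraries, r with Nr1d1 was 0.37 and with Dbp 0.20, so that the negative sign did not hold within groups. Thus no opposite movement of Arntl and its targets was detectable with 9 libraries and 32 to 74 Arntl counts in each.

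The wider clock was read from a list of 23 further genes, all with a row in the files, of which 21 or 22 were tested per comparison. In MT versus MN none passed an adjusted p of 0.05 by edgeR, and 5 of 21 had an unadjusted p under 0.05, all higher in MT, where 3.7% of all genes were. Per1, the acutely inducible Period gene, was at 38.8, 52.8 and 55.9 CPM in MN and 63.0, 88.8 and 84.3 CPM in MT (log2 fold change 0.69, SE 0.16, edgeR adjusted p = 0.334). Bhlhe40, an E-box repressor that is also induced by activity, was at 50.0, 56.4 and 48.3 CPM in MN and 96.0, 72.7 and 78.8 CPM in MT (0.69, SE 0.14, edgeR adjusted p = 0.202). For both genes the MT values all exceeded the MN values, a separation that 5.91% of all genes showed in this direction. The others were Gm129 (Ciart, a repressor of the loop) at 1.84, Usp2 (a deubiquitinase under clock control) at 0.68 and Nfil3 (which opposes DBP at the D-box) at 0.56, with edgeR adjusted p of 0.336, 0.492 and 0.344. The summed immediate early genes were 1389 to 1681 CPM in MT and 1045 to 1338 CPM in MN, and their part in these differences was not tested.

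In FN versus MN, Gm129 (log2 fold change 1.93), Hlf (1.83) and Usp2 (1.19) had an unadjusted p under 0.05 across all 6 libraries, where 5.76% of all genes did. Each was at an edgeR adjusted p of 0.633. Without FN replicate 2, 4 of 21 were called, all higher in FN, where 3.99% of all genes were, and none was called in the fit of 10 libraries. Bhlhe40 was at 0.92 (SE 0.12, edgeR adjusted p = 0.000916), Usp2 at 1.00 (SE 0.21, adjusted p = 0.0159), Hlf at 1.57 (SE 0.41, adjusted p = 0.0414) and Per1 at 0.56 (SE 0.14, adjusted p = 0.0383). Hlf, a PAR bZIP relative of Dbp, was at 2.95, 1.12 and 4.13 CPM in MN and 7.17, 9.79 and 9.59 CPM in FN. These did not overlap, as 9.71% of all genes did not in this direction. Tef, the third gene of that family, was at 37.4, 32.4 and 35.8 CPM in MN and 49.4, 27.0 and 37.0 CPM in FN, which overlapped, and was not called. Nfil3 was not called in FN versus MN either, at 21.9, 24.4 and 21.7 CPM in MN and 25.0, 29.7 and 34.1 CPM in FN. Its FN values nonetheless all lay above its MN values, as for 9.71% of all genes.

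The remaining comparisons gave further values at an unadjusted p under 0.05 in this list. In FT versus MT 9.58% of all genes had an unadjusted p under 0.05. Csnk1e, a kinase of the PER proteins, was at 1.44 there (edgeR adjusted p = 0.511). Fbxw11, a subunit of a ligase that degrades PER proteins, was at -1.17 (edgeR adjusted p = 0.513). Over the 9 libraries that did not stand apart Csnk1e lay at 22.4 to 28.8 CPM. Its highest value was 99.7 CPM, in FT replicate 2. With FT replicate 1 as the only FT library, Csnk1e was at 0.13 and Fbxw11 at -0.29. Gm129 had a difference between the sexes in the tumor effect of -2.004 (SE 0.73, unadjusted p = 0.0158, edgeR adjusted p = 1.00). In that contrast 1.47% of all genes had an unadjusted p under 0.05. None of these held after adjustment.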

How the data were processed

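WGA labeled TG neurons were sorted, and SMART-seq2 libraries were sequenced as single reads. Per the labels and methods, the authors used TopHat2 for alignment to mm9 and HTSeq for quantification. The deposited values are whole read counts per gene symbol, not normalized. CASAVA 1.8.2 and SAMtools are also named in the submitters' processing notes, and the other versions and the strand setting are not given in the sources used here. Rows that name no gene held 76.3% to 88.8% of reads and entered neither library sizes nor tests.

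CPM were computed over reads on genes, log2 CPM with a prior count of 2, and RPKM with exon lengths of GENCODE M1, which matched 21627 of 22609 symbols. Groups were taken from the labels. Counts of each pair of groups were fitted in R 4.3.3 with edgeR 4.0.16 (TMM, filterByExpr with minimum count 10 and minimum total 15, quasi-likelihood test, Benjamini-Hochberg adjustment over all genes tested), and the difference between the sexes in the tumor effect over all 12 libraries. The comparisons of the sexes used genes outside X and Y. Alternatives used DESeq2 1.42.0, limma 3.58.1, other filters, scaling and library sets, and the criteria of the study (unadjusted p under 0.05, fold change over 1.5, RPKM over 5). The fits were tested on simulated data. Correlations used exact permutations, computed with numpy 2.4.6 in Python 3.11.15. Libraries are pools of mice, so p-values measure the spread between pools, and at 4592891 to 8922011 reads on genes the low members had few counts.

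The members, gene lists, libraries that stand apart and tests were chosen with earlier results of these data known. Named genes were all members, those of the other clock genes with an unadjusted p under 0.05 in any comparison, Per1, Tef, Hlf and Nfil3 whatever their values, and the 5 genes most correlated with Dbp and the 5 with Arntl; results for 2 genes that this rule names are not reported here.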

Additional observations from a re-analysis of the deposited data

How the results depend on the processing

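In all 5 comparisons, scaling with DESeq2 size factors changed no call of a member and moved the median of all genes by less than 0.1 on the log2 scale. Counts of genes called depended strongly on the method. In MT versus MN (6 genes) they were 51 with DESeq2, 30 with limma-voom, 20 without the filter, 0 with 12 libraries, 0 with 10 and 3 with 9, and 2 to 34 with 1 library left out, with 922 at an unadjusted p under 0.05 (2 members) and 117 by the criteria of the study. In FT versus FN (0 genes) they were 1 with limma-voom, 159 unadjusted and 101 by those criteria. In FN versus MN (0 members, 0 genes) DESeq2 called 1 member and 68 genes, limma-voom 5 and 962, 9 libraries 1 and 54, fits with 1 library left out 0 to 5 and 0 to 732, FN replicates 1 and 3 with MN 5 and 777 by limma-voom and 4 and 742 by DESeq2 (chosen after seeing the data), an unadjusted p 2 and 742, and the criteria of the study 1 and 422. In FT versus MT (0 and 0) DESeq2 called 1 and 184, limma-voom 0 and 3, 9 libraries 0 and 1, an unadjusted p 1 and 1231, and the criteria 1 and 926. The sex difference in the tumor effect had 203 genes unadjusted. The cause of these shifts was not tested.

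Some fold changes that passed no threshold in the fits of all libraries of a comparison changed sign. In MT versus MN limma-voom gave -0.00081 for Per2 and -0.20 for Dbp, and leaving out 1 library gave -0.43 to 0.97 for Per2, -0.027 to 0.93 for Per3 and -0.28 to 0.34 for Dbp, the lowest each time without MT replicate 3. In FN versus MN leaving out 1 library gave -0.10 to 0.72 for Nr1d2, lowest without FN replicate 3, -0.38 to 0.48 for Cry1 and -0.56 to 0.17 for Npas2. Without FN replicate 2 in larger fits or with its weight reduced, Cry1 was at 0.48 (limma-voom), 0.48 (10 libraries) and 0.48 (9 libraries), and Npas2 at 0.24, 0.16 and 0.17. For FN replicates 1 and 3 with MN, Cry1 was at 0.50 by limma-voom and 0.48 by DESeq2, and Npas2 at 0.21 and 0.17. The sex difference in the tumor effect of Dbp was -0.036 with 9 libraries.

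Of the correlations with Arntl, r without the 2 farthest libraries changed sign for Per2 (-0.055) and Cry1 (0.042), and as deviations from group means for Per3 (0.32), Cry1 (0.56), Dbp (0.20) and Nr1d1 (0.37). With Cry1 in neither arm the arm difference was 0.47 in MN, 0.88 in MT and 1.48 in FN, in the same order of groups.

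The labels do not say whether replicate numbers pair the samples, and the main fits did not pair them. Deviations of same-number libraries from their group means correlated at -0.35 to 0.57. This does not settle whether they were paired, since the FN and FT means include the libraries that stood apart. In 4 of 12 checks a library correlated best with its own number in the other group. FT libraries entered these checks in both of their comparisons. With the replicate block, 12 genes were called in MT versus MN and 21 in FT versus MT, 0 in the other comparisons, and no member in any.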

Other observations

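Over the 9 libraries that did not stand apart, the genes with over 10 CPM on average (9541) whose log2 CPM followed Dbp most closely were Axl, a receptor kinase of the clearance of dead cells (Pearson's r 0.971), Cyp2j9 (0.970), Plekha4 (0.970), Gsta4, a glutathione transferase (0.966), and Crip1 (0.962), and 68 genes had an r over 0.9. Those close to Arntl included Ppp1r3f (0.942), Cic, a transcriptional repressor (0.935), Atxn7l3b (0.912) and Arid1a, a chromatin remodeling subunit (0.912), and 6 genes had an r over 0.9. No clock gene of the 33 listed was among either group of 5. These r values are descriptions over 9 libraries that share group and sex, and genes are not independent replicates.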
